A study of Mus musculus with 11 samples.

Results

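Fgf21, the liver hormone of fasting and nutrient stress, was followed with 9 genes of the ATF4 stress response in the livers of db/db mice given an antibody against the glucagon receptor (GCGR). The 10 genes are Fgf21, Atf3, Atf4, Atf5, Ddit3, Trib3, Asns, Chac1, Sesn2 and Nupr1. The genes were chosen with earlier results of these data known. Their probes were taken as the gene probes whose RefSeq accession is a transcript of one of them, with no measured value used in that step. This gave 11 probes among 39429 on the array and 10 genes among 20144 that could be named. All 10 genes passed the filter on dim probes, which left 15974 genes to be tested, and all 11 probes were well above background on all 11 arrays.

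The treated mice received 3c7.v44, the monoclonal anti-GCGR antibody, at 5 mg/kg (6 liver samples, anti-GCGR replicates 1 to 6), and the controls received phosphate-buffered saline (PBS; 5 liver samples, PBS replicates 1, 3, 4, 5 and 6). Both groups carried the db/db genotype, a loss of the working leptin receptor that makes mice obese and diabetic, so no lean or leptin-responsive liver is part of the comparison. PBS replicate 2 was not analysed here, and neither age, sex nor time after the dose is given in the labels used here. Each sample was labelled with Cy5 and hybridised against one pooled mouse reference RNA in Cy3, so that each value is a log2 ratio of liver over reference. A log2 difference of 1 is a 2-fold change. Whether the samples are separate mice is not stated, so each p-value sets a difference against the spread between samples, which may be technical.

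ATF4 is a transcription factor made when kinases phosphorylate eIF2alpha, as they do on amino acid shortage, unfolded protein in the endoplasmic reticulum or mitochondrial stress. Translation then slows in general while the Atf4 message is translated better, so the protein can rise with no rise of the transcript. Together with C/EBP partners ATF4 switches on genes of amino acid supply, tRNA charging, glutathione turnover and cell death. Fgf21 is one of its targets in liver, and is also known there as a target of the fatty acid sensor PPARalpha and of the carbohydrate sensor ChREBP. Glucagon, which acts on hepatocytes through GCGR, is known to raise FGF21.

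Median Cy5 signals lay between 85 and 110 scanner units over a local background of 26 to 27, and 66.2% to 77.1% of gene spots were well above background. One antibody array stood apart from its label. Each array was placed by the genes called when it and both arrays numbered 5 were left out. Of these genes, anti-GCGR replicate 5 lay nearer to the antibody mean than to the PBS mean in 27.5%, beside 77.2% to 93.6% for the other antibody arrays against 9.28% to 23.7% for the PBS arrays. PBS replicate 5 was the highest of its group on that measure at 23.7%, but close to PBS replicate 6 at 22%. It was for Fgf21 that PBS replicate 5 stood apart from the other PBS arrays. Both arrays numbered 5 came from slide 2, which held 3 of the 11 arrays. In genes whose groups did not overlap, anti-GCGR replicate 5 lay on the antibody side of the PBS range, which follows from that choice. Examples were 1.499 for Ppargc1a (PBS livers from 1.69), -1.27 for Slc38a2 (PBS livers from -1.10) and -5.54 for Col1a1 (PBS livers up to -6.07). Lying beyond the PBS range does not mean that it lay nearer to the antibody mean. Whether the samples numbered 5 carry the right label was not tested. The labels were kept as given, and the counts per gene list that change without both arrays are given both ways.

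The sequence around each start was searched for a known ATF4 element. In a RefSeq table of assembly GRCm38.p6, holding 250 bases before to 50 bases after each transcription start, all 10 genes had a promoter (11 in all, 2 for Atf5). The core of the composite ATF4 and C/EBP element, TGATGNAA, was searched on both strands. It occurred in 3.97% of the 32851 promoters of the table and in 6 of the 10 genes: Fgf21, Atf3, Trib3, Asns, Chac1 and Nupr1. The first share counts promoters and the second counts genes. The 10 genes were picked as genes of the ATF4 response, so their share is not read against that of all promoters. The promoters of Fgf21, Atf3 and Asns are shown, because Fgf21 had the largest difference of the 10 genes, Atf3 was the gene that passed the test, and Asns is the classical amino acid response gene. Each is written 5′ to 3′ along the gene, and capitals mark the match.
Fgf21, chr7:45615441-45615740, minus strand: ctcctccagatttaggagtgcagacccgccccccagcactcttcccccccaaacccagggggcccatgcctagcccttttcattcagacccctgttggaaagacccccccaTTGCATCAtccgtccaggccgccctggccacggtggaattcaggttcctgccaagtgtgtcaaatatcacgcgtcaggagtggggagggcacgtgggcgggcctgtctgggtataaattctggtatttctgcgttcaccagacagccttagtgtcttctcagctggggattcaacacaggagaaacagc
Atf3, chr1:191183284-191183583, minus strand: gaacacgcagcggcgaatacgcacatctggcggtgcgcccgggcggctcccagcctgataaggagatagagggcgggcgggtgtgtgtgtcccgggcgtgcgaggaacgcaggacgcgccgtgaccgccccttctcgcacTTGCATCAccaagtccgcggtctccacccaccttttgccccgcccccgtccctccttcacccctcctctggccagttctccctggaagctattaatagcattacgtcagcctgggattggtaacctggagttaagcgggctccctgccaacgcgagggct
Asns, chr6:7693160-7693459, minus strand: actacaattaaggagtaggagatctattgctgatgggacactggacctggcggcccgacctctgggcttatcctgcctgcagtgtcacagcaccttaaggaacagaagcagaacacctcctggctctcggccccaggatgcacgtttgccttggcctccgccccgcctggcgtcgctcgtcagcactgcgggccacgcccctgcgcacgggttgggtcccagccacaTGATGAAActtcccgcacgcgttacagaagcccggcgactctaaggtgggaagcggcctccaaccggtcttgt

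In Fgf21 the match was TTGCATCA, the motif on the strand opposite to the gene, with its first base at position -139 from the start. Atf3 and Nupr1 held the same 8 bases at position -110, and Chac1 held them at position -193. Trib3 held TTACATCA at position 15 after the start, also on the opposite strand, and Asns held TGATGAAA at position -23 on its own strand. The windows of Atf4, Atf5, Ddit3 and Sesn2 did not contain these letters. The full palindrome of the cAMP response element, TGACGTCA, was in 1.79% of all promoters and in 0 of the 10 genes. These are matches of letters in a short window, and binding was not measured.

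Of the 10 genes, Atf3 rose, none fell and 9 did not pass the test (limma, with p-values adjusted by the method of Benjamini and Hochberg, BH, over all 15974 genes, and a threshold of 0.05). Among all genes 14.6% were called, 8.99% as higher and 5.66% as lower, so 1 call in 10 genes is close to the background. At an unadjusted p under 0.05 there were 4 (Fgf21, Atf3, Asns and Sesn2), beside 4866 of all 15974 genes tested. The values of the groups overlapped in each of the 10 genes, against 6.64% of all genes in which they did not. The median log2 fold change of the 10 genes was 0.07, against 0.01 over all genes tested.

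**Figure D1:**
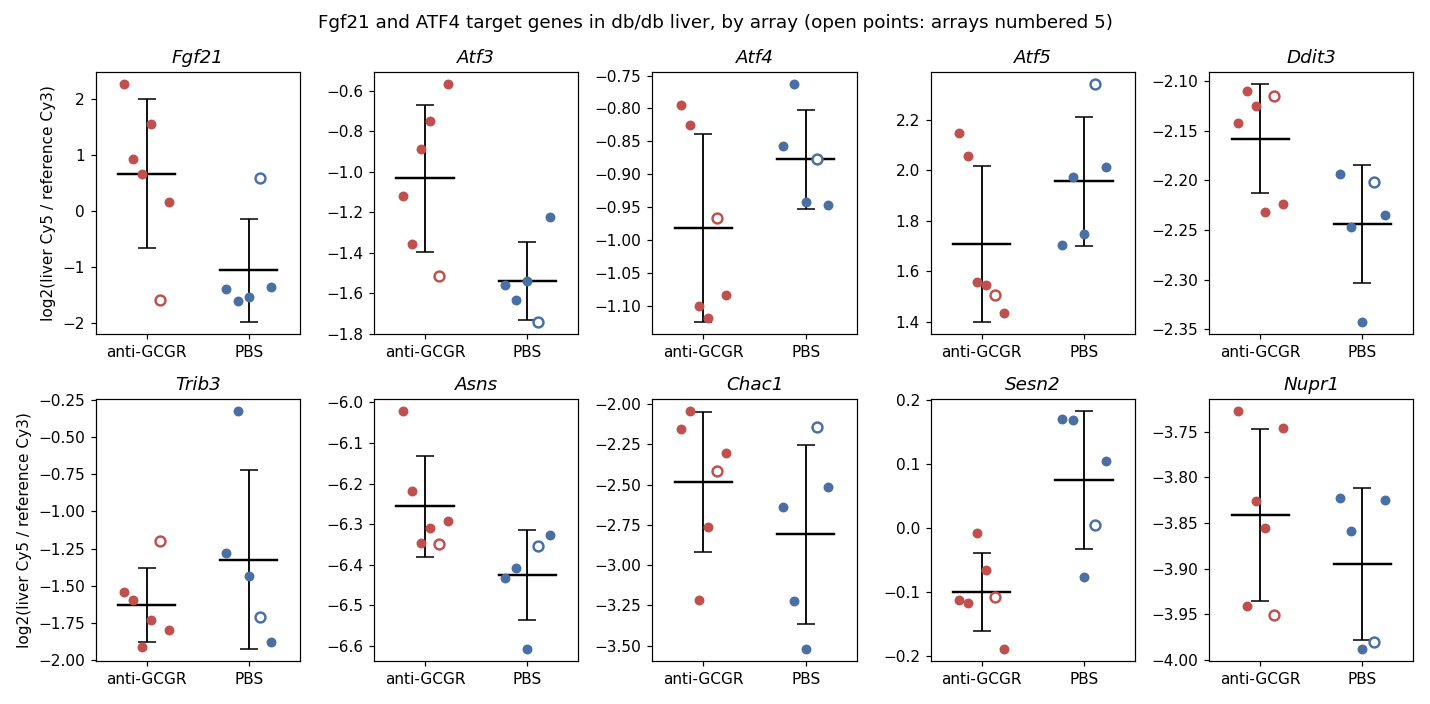
Log2 ratio of liver (Cy5) over reference (Cy3) of the 10 genes, 1 point per array, for anti-GCGR livers (red, n = 6) and PBS livers (blue, n = 5); bars are the mean and SD, open points are the arrays numbered 5, and each panel has its own axis. In Fgf21 the open antibody point lies at -1.60 and the open PBS point at 0.58, each on the side of the other group.

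Fgf21, the hormone itself, had the largest difference of the 10 genes and missed the threshold. Its log2 ratio in antibody livers was -1.60 at the lowest, 0.80 at the median and 2.27 at the highest, against -1.39, -1.61, -1.53, 0.58 and -1.35 in PBS replicates 1, 3, 4, 5 and 6. Of the 6 antibody livers, 4 lay above every PBS liver and 1 (replicate 6, at 0.17) lay between PBS replicate 5 and the other 4 PBS livers. The remaining antibody liver, replicate 5, had next to the lowest value of all 11 arrays. The means were 0.67 ± 1.33 in antibody livers (SD, n = 6) and -1.06 ± 0.92 in PBS livers (SD, n = 5). Antibody livers were 3.31-fold above PBS livers, a log2 difference of 1.73 ± 0.59 (SE), with a 95% interval of 0.45 to 3.00 and a BH-adjusted p in limma of 0.0671. The exact permutation test over all 462 splits of the arrays gave p = 0.0368, two-sided, where 0.00216 is the smallest it can give. In size it ranked 23 among the 15974 genes.

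The Cy5 signal of the Fgf21 probe was 76 to 1411 units in antibody livers (median 564), against 84, 70, 97, 462 and 92 units in PBS replicates 1, 3, 4, 5 and 6. The Cy3 signal, which carries the reference, stayed between 329.5 and 419 units on the antibody arrays and between 313 and 362 units on the PBS arrays. The liver channel therefore carried nearly the whole difference, 1.71 in unnormalised log2 units against 0.12 in the reference channel. The median over all genes was 0.01 in Cy5 and 0.11 in Cy3. In RNA from whole liver, fewer cells of a type and less RNA per cell cannot be told apart.

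The call of Fgf21 turned on the 2 arrays numbered 5. Without anti-GCGR replicate 5 the log2 fold change was 2.18 (limma, BH-adjusted p = 0.00386), and without PBS replicate 5 it was 2.14 (limma, BH-adjusted p = 0.0300). Without both, the antibody livers were 6.02-fold above the PBS livers, a log2 fold change of 2.59 ± 0.33 (SE, limma, BH-adjusted p = 0.000277). Fgf21 and Atf3 were then the called genes of the 10, where 23% of all genes were called. Leaving out both arrays was chosen after the data were seen. Fgf21 lay farthest from its group means on these arrays, so its larger difference and smaller p without them follow in part from that choice. Leaving out any 1 of the other 9 arrays gave no call, and the log2 fold change over all 11 such fits lay between 1.40 and 2.18. Within slide 1, the mean difference of antibody minus PBS was 3.37 (2 against 2 arrays), and within slide 3 it was 1.90 (2 against 2). Within slide 2, which holds both arrays numbered 5, it was -0.92 (2 against 1). With slide as a block the log2 fold change was 1.75 (limma, BH-adjusted p = 0.0752).

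**Figure D2:**
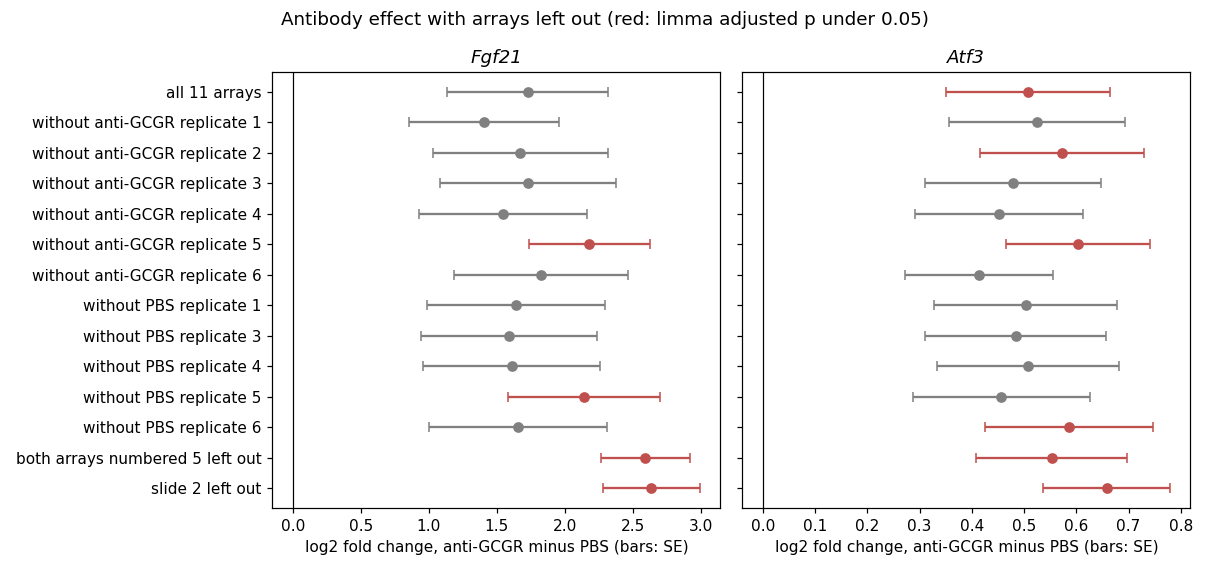
Log2 fold change of antibody minus PBS for Fgf21 (left) and Atf3 (right) with all arrays and with arrays left out; points are the fitted values, bars the moderated SE, and red marks an adjusted p under 0.05. Fgf21 was called in 4 of the 14 rows, those without anti-GCGR replicate 5, without PBS replicate 5, without both or without slide 2.

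With all arrays kept, Fgf21 also varied more within its groups than nearly all other genes. Its pooled SD within groups was 1.17 on the log2 scale, rank 6 among the 15974 genes, where the median gene had 0.12. This SD rests in large part on the arrays numbered 5. PBS replicate 5 was at 0.58, and the other PBS livers lay between -1.61 and -1.35. Anti-GCGR replicate 5 was at -1.60, and the other antibody livers lay between 0.17 and 2.27. The ranking of SD was not repeated without these arrays. Chac1 (0.49, rank 185), Trib3 (0.45, rank 240), Atf3 (0.30, rank 749) and Atf5 (0.29, rank 851) were also more variable than the median gene. Ddit3 was among the steadiest at 0.06, rank 15375.

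Next come the transcription factors. Atf3, a stress-induced transcription factor of the ATF and CREB family, was the gene that rose. Its log2 ratio in antibody livers was -1.51 at the lowest, -1.004 at the median and -0.56 at the highest, against -1.56, -1.63, -1.54, -1.74 and -1.22 in PBS replicates 1, 3, 4, 5 and 6. All 6 antibody livers lay above the PBS median and 4 lay above every PBS liver. This is a rise of 1.42-fold, or 0.51 ± 0.16 (SE) on the log2 scale, with a BH-adjusted p in limma of 0.0467. It was positive within each slide, at 0.61, 0.31 and 0.70 for slides 1, 2 and 3.

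The call of Atf3 was a narrow one. It held in 3 of the 11 fits that left out 1 array, those without PBS replicate 6, anti-GCGR replicate 2 or anti-GCGR replicate 5, with a log2 fold change of 0.41 to 0.60 over all 11. Without both arrays numbered 5 it was 0.55 (limma, BH-adjusted p = 0.0174). It was lost, with the direction kept, with the ratio of the scanner software (0.59, limma, BH-adjusted p = 0.0735), with median centring in place of loess (0.40, 0.0548) and with the Cy5 channel alone (0.49, 0.0770).

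Atf4, the factor that names the response, had 2 probes. On the brighter one the log2 ratio in antibody livers was -1.12 at the lowest, -1.03 at the median and -0.80 at the highest, against -0.86, -0.76, -0.94, -0.88 and -0.95 in PBS replicates 1, 3, 4, 5 and 6. Of the 6 antibody livers, 4 lay below every PBS liver and the other 2 lay within the PBS range. The log2 fold change was -0.10 ± 0.07 (SE, limma, BH-adjusted p = 0.351), and the other probe gave -0.08 ± 0.06 (SE, limma, BH-adjusted p = 0.437 over all kept probes). The transcript says nothing of how much ATF4 protein was made.

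Atf5, a liver-rich relative of ATF4 that is likewise controlled in translation, averaged 1.71 ± 0.31 in antibody livers (SD, n = 6) and 1.96 ± 0.25 in PBS livers (SD, n = 5). Antibody livers lay at 1.44 at the lowest, 1.55 at the median and 2.15 at the highest, against 1.71, 1.97, 1.75, 2.34 and 2.01 in PBS replicates 1, 3, 4, 5 and 6. Antibody replicates 1 and 2 lay within the PBS range and the other 4 below it. Antibody minus PBS was -0.25 ± 0.15 (SE, limma, BH-adjusted p = 0.295). Within slide 1 the difference was 0.12, and within slides 2 and 3 it was -0.56 and -0.50.

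Ddit3, which encodes the death-associated factor CHOP, spanned a narrow range. Its log2 ratio in antibody livers was -2.23 at the lowest, -2.13 at the median and -2.11 at the highest, against -2.19, -2.25, -2.34, -2.20 and -2.24 in PBS replicates 1, 3, 4, 5 and 6. The log2 fold change was 0.09 ± 0.05 (SE, limma, BH-adjusted p = 0.245), and its sign turned to -0.053 with median centring and to -0.14 with the Cy5 channel alone. Nupr1, a small stress-induced chromatin protein, averaged -3.84 ± 0.09 in antibody livers (SD, n = 6) and -3.89 ± 0.08 in PBS livers (SD, n = 5). Its log2 fold change was 0.05 ± 0.06 (SE, limma, BH-adjusted p = 0.592), with a 95% interval of -0.07 to 0.18, and -0.063 with median centring. For both genes the values of the groups ran into each other.

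Among the effectors, Asns, which makes asparagine from aspartate and glutamine, is read as a marker of amino acid shortage. Its log2 ratio in antibody livers was -6.35 at the lowest, -6.30 at the median and -6.02 at the highest, against -6.43, -6.41, -6.61, -6.35 and -6.33 in PBS replicates 1, 3, 4, 5 and 6. All 6 antibody livers lay above the PBS median. Asns was 1.13-fold higher in antibody livers, 0.17 ± 0.07 (SE) on the log2 scale, with a BH-adjusted p in limma of 0.123. Its Cy5 signal was 255 to 351 units in antibody livers and 245 to 269.5 units in PBS livers, beside Cy3 signals of 21950 to 31559 units, so the reference RNA held far more of this transcript than db/db liver did.

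Chac1, an enzyme that breaks down glutathione, and Trib3, a pseudokinase that feeds back on ATF4 and restrains insulin signalling, were the 2 widely scattered effectors. Chac1 in antibody livers was -3.21 at the lowest, -2.36 at the median and -2.04 at the highest, against -2.64, -3.22, -3.52, -2.14 and -2.52 in PBS replicates 1, 3, 4, 5 and 6. The Chac1 groups covered nearly the same range, and the log2 fold change was 0.33 ± 0.25 (SE, limma, BH-adjusted p = 0.423). Trib3 in antibody livers was -1.91 at the lowest, -1.66 at the median and -1.20 at the highest, against -1.28, -0.32, -1.43, -1.71 and -1.88 in PBS replicates 1, 3, 4, 5 and 6. One PBS liver, replicate 3, stood above all other 10 livers for Trib3. The Trib3 log2 fold change was -0.31 ± 0.23 (SE, limma, BH-adjusted p = 0.406) with that array and -0.06 without it.

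Sesn2, a leucine sensor that restrains the growth kinase complex mTORC1, ran the other way from Atf3. Its log2 ratio in antibody livers was -0.19 at the lowest, -0.11 at the median and -0.01 at the highest, against 0.17, 0.17, -0.08, 0.00 and 0.10 in PBS replicates 1, 3, 4, 5 and 6. All antibody livers lay below the PBS median and 4 of 6 lay below every PBS liver, with PBS replicate 4 reaching into the antibody range. The log2 fold change was -0.17 ± 0.06 (SE, limma, BH-adjusted p = 0.0569), and it was negative within each of the 3 slides. It passed the threshold with the ratio of the scanner software (-0.24, limma, BH-adjusted p = 0.0300), with median centring (-0.31, 0.00534), with the Cy5 channel alone (-0.23, 0.0341) and without PBS replicate 4 (-0.21, 0.0361). Under those 3 scalings Sesn2 was the called gene of the 10, and Atf3 was not.

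**Figure D3:**
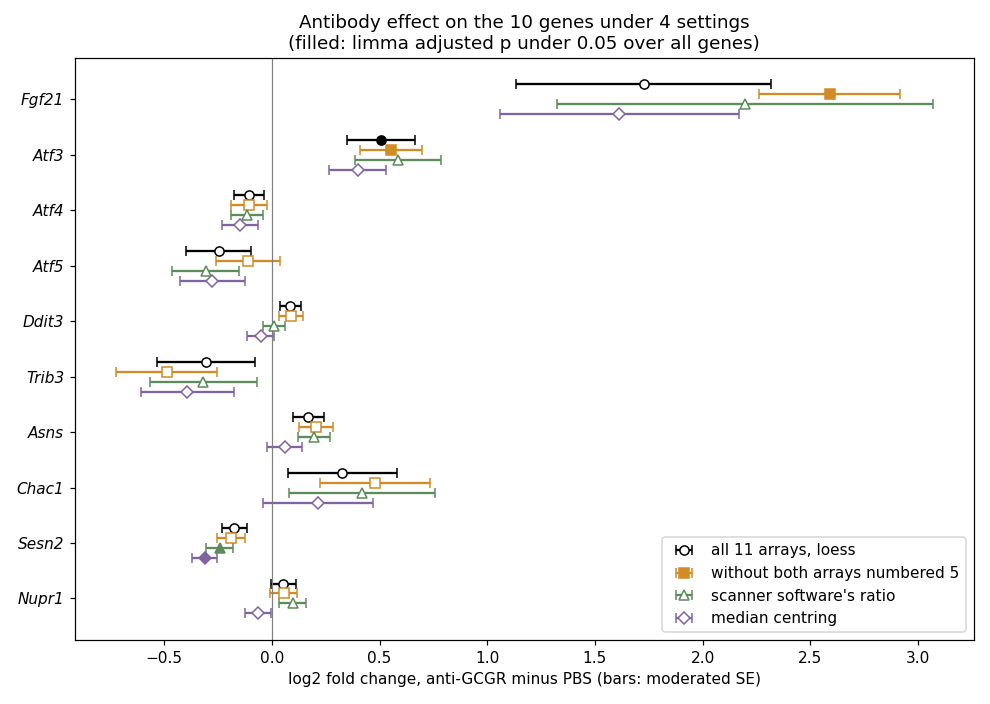
Log2 fold change of antibody minus PBS for the 10 genes (points) with the moderated SE (bars) under 4 settings, where filled points had an adjusted p under 0.05. Fgf21 and Atf3 lay to the right and Sesn2 to the left of 0 under all 4, and Ddit3 and Nupr1 changed sides with median centring.

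The wider pathway showed calls in both directions. Of 59 tested genes in 5 lists around ATF4, 6 rose, 6 fell and 47 did not pass, with a median log2 fold change of 0.06, where 14.6% of all genes were called (8.99% higher, 5.66% lower). Averaged over those 59 genes, the deviation from the PBS mean was -0.0083 to 0.065 on the antibody arrays and -0.036 to 0.055 on the PBS arrays. Without both arrays numbered 5, 13 rose and 8 fell, where 13.1% and 9.88% of all genes were called as higher and lower. Leaving out 1 array at a time gave 6 to 20 calls, with 20 without anti-GCGR replicate 5 and 6 without PBS replicate 3 or 4.

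Upstream of ATF4, among 9 kinases, phosphatase subunits and regulators of eIF2alpha, 1 gene fell and the other 8 did not pass. At an unadjusted p under 0.05 there were 6 of the 9, beside 4866 of all 15974 genes tested. Without both arrays numbered 5, the kinases Eif2ak1, Eif2ak2 and Eif2ak3 were called higher beside the lower Ppp1r15b, where 23% of all genes were called. Ppp1r15b, the standing subunit that directs phosphatase 1 to eIF2alpha and so ends the signal, was at 0.10 at the lowest, 0.26 at the median and 0.35 at the highest in antibody livers. In PBS livers it lay between 0.43 and 0.79 with a median of 0.62, so the groups did not overlap. Its log2 fold change was -0.37 ± 0.08 (SE, limma, BH-adjusted p = 0.0106). The stress-induced subunit Ppp1r15a was at 0.12 ± 0.05 (SE, limma, BH-adjusted p = 0.127). Of the kinases, Eif2ak3 (PERK), which answers unfolded protein in the endoplasmic reticulum, had a log2 fold change of 0.23 ± 0.08 (SE, limma, BH-adjusted p = 0.0832), and 0.29 without both arrays numbered 5 (0.0270). Eif2ak4 (GCN2), which answers uncharged tRNA, had 0.07 ± 0.05 (SE, limma, BH-adjusted p = 0.318), and -0.042 with median centring.

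Downstream, in amino acid and one-carbon synthesis, 2 of 10 genes rose, 1 fell and 7 did not pass. The genes that rose were Psph and Psat1, which carry out the closing steps of serine synthesis, at 0.41 ± 0.09 (SE, limma, BH-adjusted p = 0.0125) and 0.27 ± 0.07 (SE, limma, BH-adjusted p = 0.0205). Psat1 was 0.12 when its probes were averaged (limma, BH-adjusted p = 0.172). The gene that fell was Cth, the cystathionine lyase that makes cysteine, at 2.94 at the lowest, 3.903 at the median and 5.52 at the highest in antibody livers and 4.90 to 5.43 in PBS livers. Its log2 fold change was -1.27 ± 0.33 (SE, limma, BH-adjusted p = 0.0257), the largest of the 59 in size. It passed in 5 of the 11 fits that left out 1 array.

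Among 20 cytosolic tRNA synthetases, which load amino acids onto their tRNAs, Tars rose by 0.33 ± 0.08 (SE, limma, BH-adjusted p = 0.0157), and its groups did not overlap. Aars fell by 0.29 in log2 units (SE 0.08, limma, BH-adjusted p = 0.0389), and the other 18 did not pass. The list's median log2 fold change was 0.04. Among 8 amino acid transporters, Slc6a9, a glycine carrier, rose by 0.52 ± 0.13 (SE, limma, BH-adjusted p = 0.0245), and 2 carriers of neutral amino acids fell. These were Slc38a2 at -0.55 ± 0.08 (SE, limma, BH-adjusted p = 0.00413) and Slc1a4 at -0.39 ± 0.09 (SE, limma, BH-adjusted p = 0.0131). Slc38a2 lay between -1.70 and -1.27 in antibody livers and between -1.10 and -0.81 in PBS livers, with no overlap.

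Of 12 further stress genes under ATF4, 2 rose, 1 fell and 9 did not pass. Xpot, which exports tRNA from the nucleus, rose by 0.42 ± 0.12 (SE, limma, BH-adjusted p = 0.0316). Ddit4, an inhibitor of mTORC1, rose by 0.18 ± 0.05 (SE, limma, BH-adjusted p = 0.0229), its groups apart. Vldlr, a lipoprotein receptor, fell by 0.44 in log2 units (SE 0.14, limma, BH-adjusted p = 0.0462). Gdf15, a second stress hormone, had a log2 fold change of 0.51 ± 0.24 (SE, limma, BH-adjusted p = 0.167). Of the 12 called pathway genes, Ppp1r15b, Slc38a2 and Slc1a4 passed under all alternatives that were run, and all 3 fell. Tars, Psph, Psat1 and Ddit4, which rose, passed in 22, 21, 20 and 20 of the 24 alternatives. Median centring was 1 of these alternatives, and 21.3% of its called genes were higher, against 61.4% with loess. Tars and Psph passed in all 11 fits that left out 1 array. Aars passed in 2 of those 11 fits, Vldlr in 3, Xpot in 4 and Slc6a9 in 6. In the fit without both arrays numbered 5, 3 rose and 1 fell among the enzymes of amino acid and one-carbon metabolism, 3 rose and 1 fell among the synthetases, 1 rose and 3 fell among the transporters, and 3 rose and 2 fell among the further stress genes.

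**Figure D4:**
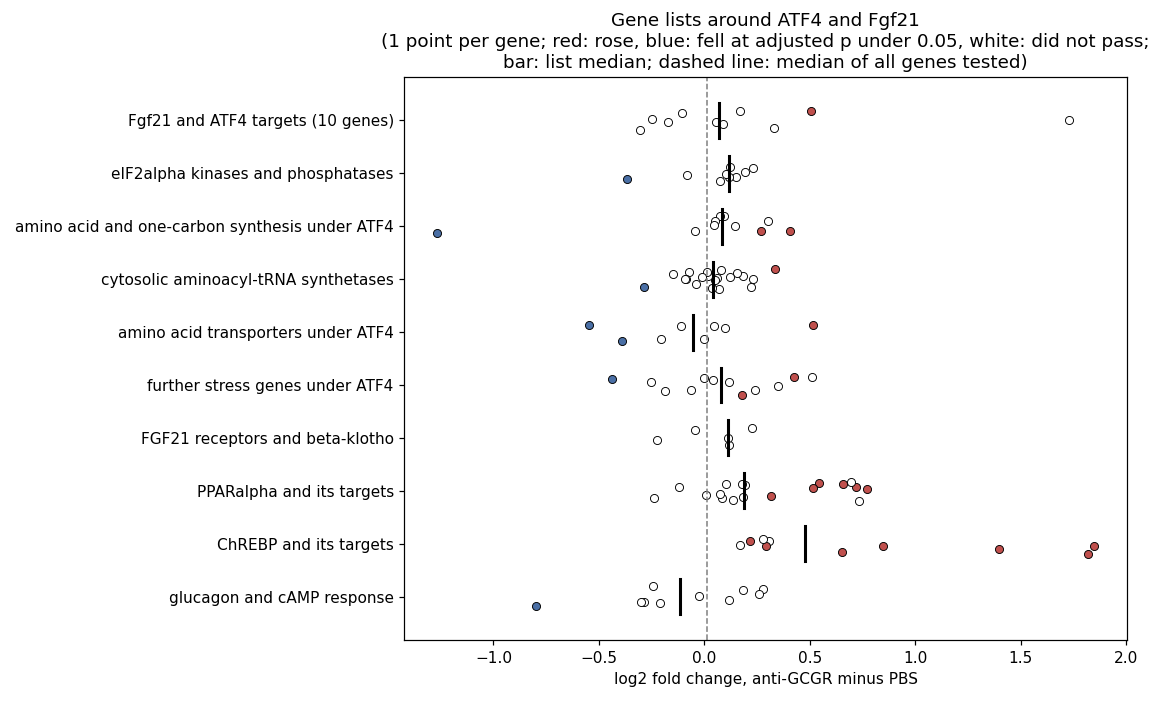
Log2 fold change of antibody minus PBS for the genes of 10 lists, 1 point per gene, with red for genes that rose, blue for genes that fell and white for genes that did not pass; the bar is the list's median and the dashed line the median of all genes tested (0.01). The 5 lists around ATF4 have medians of -0.06 to 0.12, and the ChREBP list has 0.48.

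The folding-stress branches were compared in the same way. The shares called over all genes were 8.99% higher and 5.66% lower, and 13.1% and 9.88% without both arrays numbered 5. Of 15 chaperones and degradation factors of the endoplasmic reticulum, Pdia6, a disulfide isomerase, rose by 0.33 ± 0.08 (SE, limma, BH-adjusted p = 0.0218), and the other 14 did not pass; without both arrays numbered 5, Edem1 and Sdf2l1 were also called, both lower. Hspa5 (BiP), the main chaperone of that compartment, was at -0.14 ± 0.12 (SE, limma, BH-adjusted p = 0.476). Of 8 mitochondrial chaperones and proteases, Clpx fell by 0.51 in log2 units (SE 0.14, limma, BH-adjusted p = 0.0269) and the other 7 did not pass. Without both arrays numbered 5, 5 of these 8 fell (Hspd1, Hspa9, Hspe1, Lonp1 and Clpx).

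In the lists of PPARalpha and ChREBP, the other known regulators of Fgf21, the calls over all 11 arrays were upward. Of all genes, 8.99% were called higher and 5.66% lower. Without both arrays numbered 5 these shares were 13.1% and 9.88%. Of 18 genes of PPARalpha and its targets, 6 rose, 0 fell and 12 were not called, with a median log2 fold change of 0.19. When both arrays numbered 5 were left out, 8 rose and 1, Cyp4a10, fell by 0.22 in log2 units. Plin2, which coats lipid droplets, rose by 0.77 ± 0.17 (SE, limma, BH-adjusted p = 0.0122) and Cpt1b, the muscle-type enzyme of fatty acid entry into mitochondria, by 0.72 ± 0.20 (SE, limma, BH-adjusted p = 0.0321). Ppara itself rose by 0.32 ± 0.09 (SE, limma, BH-adjusted p = 0.0302), and that call was lost with the ratio of the scanner software (limma, BH-adjusted p = 0.131). Of 10 genes of ChREBP and its targets, 7 rose, 0 fell and 3 were not called, with a median of 0.48, and 9 rose without both arrays numbered 5. Elovl6, which lengthens fatty acids, rose by 1.85 ± 0.38 (SE, limma, BH-adjusted p = 0.0104), Acly, which makes cytosolic acetyl-CoA, by 1.82 ± 0.44 (SE, limma, BH-adjusted p = 0.0182) and Pklr, the liver pyruvate kinase, by 1.39 ± 0.29 (SE, limma, BH-adjusted p = 0.0106). Pklr was 0.63 with the ratio of the scanner software (limma, BH-adjusted p = 0.345). These lists were written with earlier results of these data known, and their difference from the ATF4 lists was not tested.

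The arrays numbered 5 were unusual in these lists as well. The mean deviation of the ChREBP list from its PBS mean was 0.21 on anti-GCGR replicate 5 and 0.51 to 1.15 on the other antibody arrays. It was 0.36 on PBS replicate 5 and -0.20 to 0.12 on the other PBS arrays. For the PPARalpha list it was -0.0016 on anti-GCGR replicate 5 and 0.12 to 0.48 on the other antibody arrays, against -0.07 to 0.10 on the PBS arrays, with PBS replicate 5 at 0.04. Single genes of the PPARalpha list differed from its mean, and Plin2 was at 3.11 on PBS replicate 5 and 2.34 to 2.66 on the other PBS arrays.

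The genes whose values ran most like those of Fgf21 were found from deviations from the group means over the 11 arrays. The 5 nearest of 15973 were Rab34, a small GTPase (Pearson r = 0.964), Pex11a, a peroxisome division protein (0.953), Arsg, a lysosomal sulfatase (0.952), Plin2 (0.947) and Ivns1abp, an actin-binding protein (0.946). Without the arrays numbered 5 these r values lay between 0.785 and 0.897. Pex11a was at 3.40 on anti-GCGR replicate 5 and at 4.78 to 5.58 in the other antibody livers, against 3.81, 3.25, 3.56, 4.34 and 3.60 in PBS replicates 1, 3, 4, 5 and 6. As in Fgf21, its lowest antibody value was replicate 5 and its highest PBS value was replicate 5. Pex11a rose by 1.18 ± 0.33 (SE, limma, BH-adjusted p = 0.0313), and Rab34 by 0.50 ± 0.14 (SE, limma, BH-adjusted p = 0.0313). Arsg and Ivns1abp were not called over all 11 arrays and were called higher without both arrays numbered 5, at 0.72 and 0.64 (BH-adjusted p = 0.00908 and 0.00082). All points come from the same arrays against the same reference, so the r values are given as a description. The 5 genes were picked for running like Fgf21, which lay farthest from its group means on the arrays numbered 5. Their values on those arrays, and larger differences without them, therefore follow in part from the choice.

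**Figure D5:**
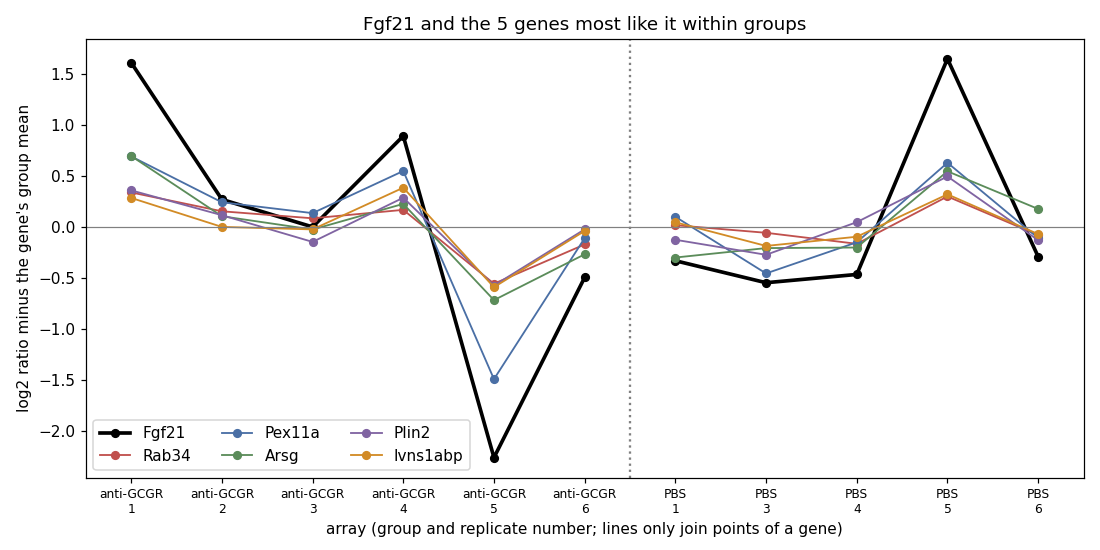
Log2 ratio minus the gene's own group mean (vertical axis) on each array (horizontal axis, anti-GCGR arrays left of PBS arrays) for Fgf21 (black) and the 5 genes most like it; lines only join the points of a gene. All 6 genes have their lowest value on anti-GCGR replicate 5 and their highest PBS value on PBS replicate 5. The 5 genes were picked for running like Fgf21, so this follows in part from the choice.

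None of the other 9 stress genes was among the 5. On the same measure, r with Fgf21 was 0.679 for Atf5, 0.591 for Asns, 0.322 for Chac1, 0.195 for Nupr1, 0.178 for Atf4, 0.160 for Atf3, 0.009 for Ddit3, -0.078 for Sesn2 and -0.389 for Trib3. Without the arrays numbered 5 these were 0.595 for Atf5, 0.614 for Asns, 0.229 for Chac1, 0.166 for Nupr1, 0.445 for Atf4, -0.332 for Atf3, 0.137 for Ddit3, 0.134 for Sesn2 and 0.076 for Trib3. Atf5 and Asns were the most alike of the 9 both ways, and the sign of Atf3, Sesn2 and Trib3 turned.

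FGF21 acts on cells through FGF receptors joined with the co-receptor beta-klotho. None of the 5 receptor genes passed the test, nor did any reach an unadjusted p under 0.05. Klb, which encodes beta-klotho, was at 0.23 ± 0.12 (SE, limma, BH-adjusted p = 0.203), but had the opposite sign, -0.13, under the ratio of the scanner software. On the side of glucagon action, 1 of 10 genes passed, where 14.6% of all genes did. At an unadjusted p under 0.05 there were 7, beside 4866 of all 15974 genes tested. Leaving out both arrays numbered 5 gave 7 calls, where 23% of all genes were called. Gcgr, G6pc and Nr4a2 were then higher, and Ppargc1a, Pck1, Tat and Crem lower. Ppargc1a, a coactivator of the fasting response that glucagon induces through cAMP, lay between 0.97 and 1.499 in antibody livers and between 1.69 and 2.29 in PBS livers. It fell by 0.80 in log2 units (SE 0.11, limma, BH-adjusted p = 0.00413), with no overlap. The receptor transcript Gcgr was at 0.18 ± 0.07 (SE, limma, BH-adjusted p = 0.108), and at 0.23 without both arrays numbered 5 (0.0165); an antibody against the protein does not require its transcript to change.

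Atf3 is also an immediate early gene, and that list was set beside it. Of 10 other immediate early genes 4 rose, 0 fell and 6 were not called, where 8.99% of all genes were called higher. The median log2 fold change of the list was 0.24. Jun rose by 0.89 ± 0.18 (SE, limma, BH-adjusted p = 0.00902), Egr1 by 0.53 ± 0.14 (SE, limma, BH-adjusted p = 0.0303), Myc by 0.49 ± 0.15 (SE, limma, BH-adjusted p = 0.0416) and Klf6 by 0.30 ± 0.08 (SE, limma, BH-adjusted p = 0.0343). Of these 4, Jun was called under all alternatives that were run. Dusp1 was also called higher when both arrays numbered 5 were left out, where 13.1% of all genes were called higher. How the livers were taken is not stated in the labels, and its part in these genes was not tested.

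Markers of liver cell types were read beside the stress genes. Of all genes, 8.99% were called higher and 5.66% lower. Of 10 hepatocyte markers 0 rose, 2 fell (Ass1 at -0.81 and Serpina1c at -0.26, the second at 0.033 with the Cy5 channel alone) and 8 did not pass. The mean log2 ratio of the list was 5.89 to 6.09 in antibody livers and 6.00 to 6.22 in PBS livers on the log2 scale, far above the pooled reference. Of 8 stellate and fibroblast markers 5 rose (Col1a1 at 1.57, Col3a1 at 1.09, Lrat at 0.61, Pdgfrb at 0.37 and Col1a2 at 0.30). That list's mean was -1.29 to -0.67 in antibody livers and -1.68 to -1.37 in PBS livers. Of 8 endothelial markers 3 rose (Cdh5 at 0.38, but -0.069 with the ratio of the scanner software, Stab2 at 0.28 and Tek at 0.27). Of 7 macrophage markers 1 rose (Clec4f at 0.23), and of 3 erythroid markers 2 rose (Slc4a1 at 0.42 and Hba-a1 at 0.21). Over the 11 fits that left out 1 array, Ass1 passed in 1, Cdh5 in 2 and Col1a2 in 3. Serpina1c, Clec4f, Stab2 and Tek passed in 4 of them, Pdgfrb in 5 and Lrat in 8. Col1a1, Col3a1, Slc4a1 and Hba-a1 passed in all 11.

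The markers of cholangiocytes (6), lymphocytes (8), neutrophils (5), adipocytes (4) and pancreatic acinar cells (4) had 0 calls by limma. At an unadjusted p under 0.05 there were 1, 0, 0, 2 and 1, beside 4866 of all 15974 genes tested. PBS replicate 5, the PBS liver high in Fgf21, stood apart in the neutrophil list. Its mean deviation from the PBS mean was -0.28 to 0.70 in antibody livers, against 1.04 on PBS replicate 5 and -0.61 to 0.013 on the other PBS arrays. With both arrays numbered 5 left out, where 23% of all genes were called, Mpo, Sox9 and Cela1 were called higher in these lists. Among the others Lyve1 was called and Tek was not (0.23, limma, BH-adjusted p = 0.0711). Dcn was called beside the 5 stellate genes, and Apoa1 (higher) and Cps1 (lower) beside the 2 hepatocyte genes. Adipocytes and acinar cells can make FGF21 as well. The mean log2 ratio of the acinar markers was 1.43 to 1.61 in antibody livers and 1.35 to 1.496 in PBS livers. Amy2a5 carried this mean, with averages of 5.41 in antibody livers and 5.32 in PBS livers. The other acinar markers averaged 1.58 and 1.59 (Ctrb1), 0.15 and 0.14 (Cpa1) and -1.08 and -1.31 (Cela1). The mean of the adipocyte markers was 0.33 to 1.05 in antibody livers and 0.21 to 0.85 in PBS livers. The part of cell makeup in the values of Fgf21 and Atf3 was not tested.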

How the data were processed

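Liver RNA of 11 samples was measured on two-colour Agilent arrays, liver in Cy5 and reference in Cy3, with no dye swap. Signals were extracted with Agilent Feature Extraction (11 per the submitters' processing notes, and 11.5.1.1 in the file headers). The deposited files of each array hold, per the file headers, unlogged median intensity of both dyes and their background, flags of 0 or 1, and the software's log10 ratio of processed signals. The authors also deposited a table of log2 ratios, made by steps that no source used here states; it differed from the values here by a median of 0.0033 and at most 0.44, with correlations of 0.99996 to 0.99999.

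Background was corrected with limma 3.58.1 in R 4.3.3 (normexp, offset 50), then loess within arrays with control spots at weight 0. Uneven and outlying spots (156 to 255 per array) were left out and spots of a probe averaged; no spot was saturated. Probes that cleared the background flag in Cy5 on 5 or more arrays were kept, and the brightest stood for its gene. Names came from RefSeq accessions in a table of GRCm38.p6 (26581 probes). lmFit and eBayes compared the groups, two-sided, with Benjamini-Hochberg adjustment over 15974 genes; errors of fold changes are moderated SE. The script was tested on simulated data.

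Members and lists were chosen with earlier results of these data known. Named genes were the 10 members, the 2 largest called genes of each list (or its smallest p), called markers and the 5 genes most like Fgf21. Psat1, Slc1a4, Ddit4, Myc, Klf6, Ppara, Pklr, Eif2ak3, Eif2ak4, Ppp1r15a, Gdf15, Gcgr, Hspa5 and further genes called without the arrays numbered 5 were named after their values were seen. List genes not tested were Pycr1, Slc7a11, Cd68, Ly6g, Lep, Hbb-b1, Pnlip and Prss2, and 1 further gene is not reported here. Alternatives changed the values, scaling, background offset, filter, probe rule, slide, replicate block and arrays.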

Additional observations from a re-analysis of the deposited data

Results flagged for a closer look

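In 9 of 118 groups examined (59 genes, each in both groups), 1 array lay far from the rest of its group by Dixon's test; chance gives about 1 in 20. Some of these genes were named for running like Fgf21 or after their values were seen, so the count is not read against chance. Fgf21 in PBS replicate 5 was at 0.58 on the log2 scale, where the other PBS livers were at -1.61 to -1.35. Pex11a in anti-GCGR replicate 5 was at 3.40, where the other antibody livers were at 4.78 to 5.58. In the same antibody liver Psph was at -2.43 (others -2.01 to -1.89) and Pdia6 at 0.011 (others 0.30 to 0.39). Psat1 in anti-GCGR replicate 1 was at -4.20 (others -4.55 to -4.43), Ddit4 in anti-GCGR replicate 2 at -2.73 (others -2.80 to -2.79) and Pdgfrb in anti-GCGR replicate 6 at -0.81 (others -1.43 to -1.23). In PBS replicate 6, Aars was at 0.31 (others 0.044 to 0.12) and Ppp1r15a at -0.97 (others -1.12 to -1.08).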

How the results depend on the processing

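Among the 10 stress genes the call was 1 (Atf3), but 0 with a normexp offset of 16, with no filter on dim probes and with each kept probe tested (4 at an unadjusted p under 0.05 in each). It was 2 (Fgf21 and Atf3) without both arrays numbered 5 and without slide 2, settings chosen after seeing the data, and 0 to 2 with 1 array left out. The log2 fold change of Fgf21 kept its direction under all alternatives run. It passed the threshold at 2.59 without both arrays numbered 5 and at 2.64 without slide 2, and lay between 1.40 and 2.18 with 1 array left out. The 2340 calls over all genes became 3670 without both arrays numbered 5 and 1240 to 3868 with 1 array left out. The 12 calls of the ATF4 pathway became 21 and 6 to 20. Called genes were 61.4% higher, against 21.3% with median centring, 45.1% with the scanner software's ratio and 51.4% with the Cy5 channel alone. Directions reversed for Klb (-0.13) and Cdh5 (-0.069) with the scanner software's ratio. They reversed for Ddit3 (-0.053), Nupr1 (-0.063) and Eif2ak4 (-0.042) with median centring, and for Ddit3 (-0.14) and Serpina1c (0.033) with the Cy5 channel alone. The cause was not tested. Samples of the same number showed little common deviation (correlations of -0.13 to 0.14 over 5 pairs, 2 over 0.1). Arrays of the same number came from the same slide, and 5 pairs are too few to exclude a pairing. With a replicate block there were 1050 calls over all genes and 4 in the pathway, and Fgf21 was at 1.67 (limma adjusted p = 0.189). The number of arrays limits the precision. For the dim Fgf21 probe the offset moves the size, 1.99 with 16 against 1.73 with 50.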
